A study of Mus musculus with 10 samples.

Results

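The CXC chemokines are small secreted proteins that draw leukocytes into tissue and are named for a cysteine pair with a single residue between its members. 10 of their genes were examined here in mouse intestinal organoids: Cxcl1, Cxcl2, Cxcl5, Cxcl9, Cxcl10, Cxcl12, Cxcl13, Cxcl14, Cxcl16 and Cxcl17. They were taken by gene symbol from the annotation of the array, which names 19505 genes, and each of the 10 had 1 probe set. The labels give IκBα knockout (KO) as the genotype of 5 arrays and wild type (WT) as that of the other 5, and all 10 hold RNA of intestine grown as organoid culture. The labels carry a further mark, P6, that they do not explain, and how the gene was deleted, in which cells, and how many animals or cultures stood behind the arrays is not stated in them. The p-values below therefore measure the spread between these arrays, which may be technical.

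IκBα, encoded by Nfkbia, holds NF-kB transcription factors in the cytoplasm. Once released, NF-kB binds kB sites in DNA, and several CXC chemokine genes are textbook targets. In gut epithelium the neutrophil attractants Cxcl1, Cxcl2 and Cxcl5 are made on contact with bacteria or with interleukin 1, interleukin 17 or tumour necrosis factor, and act on Cxcr2. Cxcl9 and Cxcl10 are made on exposure to interferon and draw T cells through Cxcr3. Cxcl12 and Cxcl13 are largely products of stromal cells that position leukocytes through Cxcr4 and Cxcr5. Cxcl14 and Cxcl17 are epithelial, and Cxcl16 is a membrane-bound ligand of Cxcr6 that can be shed.

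The DNA just before some of these genes is shown because kB letters stood there in members that rose and in members that did not. RefSeq promoter windows (build GRCm38.p6) were found for 7 of the 10 members; Cxcl5, Cxcl16 and Cxcl17 were not matched. The 250 bases before the gene start were searched on both strands for a kB motif, GGNNTTTCC, and for the core of the interferon-stimulated response element (ISRE), GAAANNGAA. Capitals mark the matches. The windows lie at chr5:90890995-90891244 (+) for Cxcl1, chr5:90903649-90903898 (+) for Cxcl2, chr5:90785851-90786100 (+) for its close relative Cxcl3, chr5:92328080-92328329 (-) for Cxcl9 and chr5:92348890-92349139 (-) for Cxcl10, and each is written 5′ to 3′ along its gene.
Cxcl1: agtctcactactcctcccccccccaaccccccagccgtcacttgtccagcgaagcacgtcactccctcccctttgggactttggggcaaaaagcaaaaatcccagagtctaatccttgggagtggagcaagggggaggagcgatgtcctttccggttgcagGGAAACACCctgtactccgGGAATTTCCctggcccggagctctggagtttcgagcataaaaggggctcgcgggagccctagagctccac
Cxcl2: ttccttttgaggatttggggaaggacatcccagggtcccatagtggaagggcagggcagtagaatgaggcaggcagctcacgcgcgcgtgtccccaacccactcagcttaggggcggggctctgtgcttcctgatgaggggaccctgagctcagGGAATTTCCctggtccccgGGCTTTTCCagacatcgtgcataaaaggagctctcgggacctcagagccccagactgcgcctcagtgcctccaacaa
Cxcl3: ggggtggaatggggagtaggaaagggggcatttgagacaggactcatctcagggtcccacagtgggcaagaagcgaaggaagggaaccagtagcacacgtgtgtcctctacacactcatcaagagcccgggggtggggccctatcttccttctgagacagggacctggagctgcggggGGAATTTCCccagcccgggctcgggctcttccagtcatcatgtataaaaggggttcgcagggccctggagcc
Cxcl9: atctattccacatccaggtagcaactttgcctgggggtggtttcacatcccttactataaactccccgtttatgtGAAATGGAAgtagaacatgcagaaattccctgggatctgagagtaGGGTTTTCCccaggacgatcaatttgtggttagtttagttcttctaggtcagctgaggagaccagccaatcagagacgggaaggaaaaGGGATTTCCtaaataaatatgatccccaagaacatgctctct
Cxcl10: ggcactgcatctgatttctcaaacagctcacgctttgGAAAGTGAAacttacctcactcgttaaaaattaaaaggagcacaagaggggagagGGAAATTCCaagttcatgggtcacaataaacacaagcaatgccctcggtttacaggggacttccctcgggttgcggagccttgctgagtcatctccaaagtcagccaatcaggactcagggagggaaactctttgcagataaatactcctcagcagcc

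Cxcl1, Cxcl2 and Cxcl3 held the same letters, GGAATTTCC, and their matches began 70, 96 and 72 bases before the start. Cxcl10, which did not pass, held the same 9 letters on its other strand. Cxcl1 and Cxcl2 each had a further kB match, at 89 and 77 bases. Cxcl9 had kB matches at 130 and 42 bases and Cxcl10 at 158 bases, and both also held an ISRE core, at 175 and 213 bases. In all, 4 of the 7 members with a window had a kB match, as did 4.93% of the 32851 promoters in the RefSeq table over the same length. An ISRE core was found in Cxcl9, Cxcl10 and Cxcl14, and in 7.13% of all promoters. The palindrome TTCNNNGAA, the GAS element bound by STAT factors, was found in Cxcl14 alone among the 7, at 191 bases, and in 7.02% of all promoters. The letters TATAAA were found in Cxcl9 at 195 bases and in Cxcl13 at 46 bases, and in 12.4% of all promoters. Cxcl3 held them at 30 bases. Cxcl12 held none of these letters in its window, which says nothing of sites elsewhere.

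**Figure D1:**
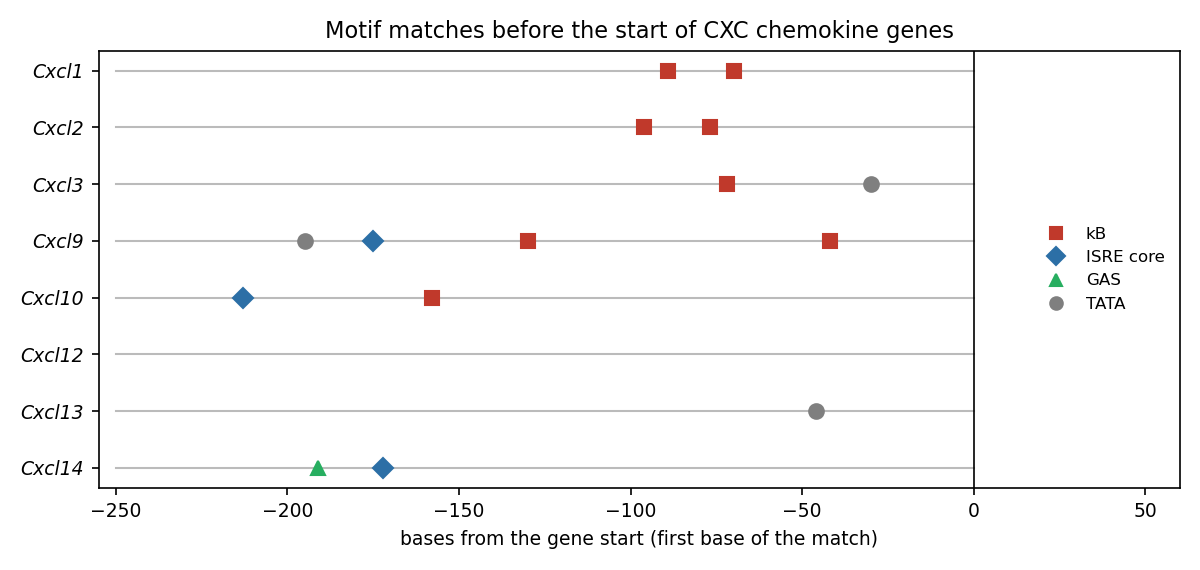
Matches of the motifs in the 250 bases before the start of 7 CXC chemokine genes and of Cxcl3; the horizontal axis is the distance in bases from the gene start to the first base of the match, and each symbol is a match on either strand. Cxcl1, Cxcl2 and Cxcl3 have kB matches within 100 bases of the start, and so does Cxcl9.

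All levels are log2 values from the deposited table, all changes are KO minus WT on that scale, and ± gives the SD of the 5 arrays of a group. A gene passed where limma's adjusted p was under 0.05. Nfkbia lay between 4.72 and 5.34 in the KO arrays and between 8.95 and 9.85 in the WT arrays, a change of -4.13 with a standard error of 0.20 (limma, adjusted p = 2.81e-08). The median level over all probe sets lay between 6.03 and 6.23 in the 10 arrays. The median of 5222 negative control probe sets ran from 4.30 in KO replicate 2 to 5.10 in KO replicate 1, and from 4.60 to 4.89 in WT; both group means were 4.73. Levels in this range are called near background here. The epithelial markers Epcam and Cdh1 were at 10.67 or more in every array. Y-linked transcripts also separated the groups, with every KO array below every WT array (Eif2s3y -5.20, Uty -4.47 and Kdm5d -2.42). A part of sex or of these genes in the changes below cannot be told apart from that of genotype.

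Of the 10 CXC chemokines, 4 rose in KO (Cxcl1, Cxcl2, Cxcl5 and Cxcl16), 1 fell (Cxcl13) and 5 did not pass. Over all 19572 probe sets tested, 15.0% passed as higher in KO and 11.7% as lower. The values of the 5 KO and the 5 WT arrays did not overlap for 4 members, Cxcl1, Cxcl5, Cxcl13 and Cxcl16, against 21.4% of all probe sets tested. The median change of the 10 members was 0.67, beside -0.01 over all probe sets tested. These are bulk samples, so more cells that make a chemokine and more of its RNA per cell cannot be told apart.

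**Figure D2:**
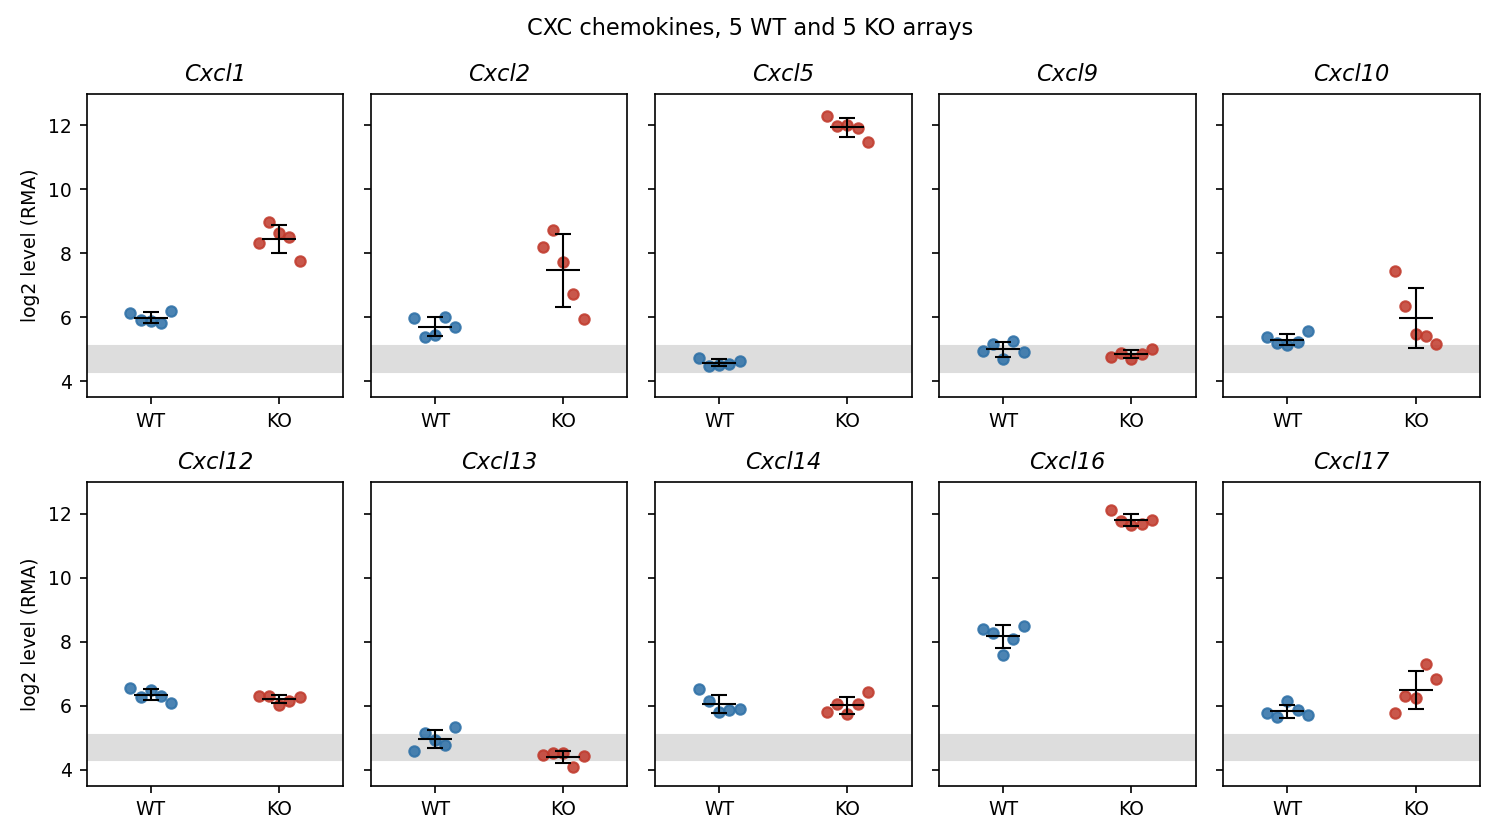
Level of each of the 10 CXC chemokines on the log2 scale; points are arrays, the horizontal mark is the mean and the bar the SD of 5 arrays, and the grey band spans the negative control medians, 4.30 to 5.10. Cxcl5 rises from the band to about the level of 12, while Cxcl9 and Cxcl13 lie in or beside the band in both groups.

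The neutrophil attractants rose, and Cxcl5 most. Cxcl5 stood at 12.31, 11.99, 12.00, 11.91 and 11.49 in KO replicates 1 to 5 and at 4.74, 4.46, 4.50, 4.54 and 4.63 in WT replicates 1 to 5. The WT arrays were all near background and the KO arrays all far above it, with no overlap. Cxcl5 rose by 7.37 ± 0.14 (standard error), an estimated 165-fold (limma, adjusted p = 2.02e-11). This was the fourth highest rise of all probe sets tested. Since the WT level was that of the negative controls, the estimated fold may be too small.

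Cxcl1, a ligand of Cxcr2 made by many stimulated cell types, stood at 8.33, 8.97, 8.65, 8.50 and 7.77 in KO and at 6.14, 5.91, 5.87, 5.83 and 6.19 in WT. Every KO array lay above every WT array. The rise was 2.46, 5.49-fold, with a standard error of 0.19 (limma, adjusted p = 1.97e-06). Cxcl2, a close relative with the same receptor, stood at 8.21, 8.74, 7.73, 6.73 and 5.93 in KO and at 5.98, 5.38, 5.45, 6.02 and 5.68 in WT. 4 KO arrays lay above all WT arrays, while KO replicate 5 lay within the WT range. Cxcl2 rose by 1.77, standard error 0.45 (limma, adjusted p = 0.0112), and the adjusted p stayed between 0.000884 and 0.0312 when any 1 array was left out. The SD of Cxcl2 in KO was 1.13, and only 0.925% of probe sets had a larger one there.

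These genes lie side by side on mouse chromosome 5, in the order Cxcl5, Ppbp, Pf4, Cxcl3, Cxcl15, Cxcl1 and Cxcl2, in the RefSeq table. 5 of the 7 rose and 2 did not pass, beside 15.0% of all probe sets tested that passed as higher. Cxcl3, the third of the Cxcl1 group, was at 7.28 to 9.44 in KO and 7.04 to 7.33 in WT and changed by 1.18 with a standard error of 0.32 (limma, adjusted p = 0.0163); as for Cxcl2, KO replicate 5 lay within the WT range. Ppbp, which encodes a precursor of platelet chemokines, was at 5.14 to 7.13 in KO and 4.11 to 4.81 in WT, with no overlap. Its WT levels lay in or below the range of the negative control medians. Ppbp changed by 1.53 with a standard error of 0.33 (limma, adjusted p = 0.0049). The rises therefore differed widely in size within the cluster. Pf4, platelet factor 4, changed by 0.37 (95% interval -0.07 to 0.81), and Cxcl15, a chemokine known from lung epithelium, by 0.08 (95% interval -0.18 to 0.34). Neither passed, and Cxcl15 lay below the 75th percentile of the negative controls in every array. Of the 3 coding genes on each side, which were picked by position, Ereg, an EGF receptor ligand, rose by 2.51 and Afm, of the albumin family, fell by 1.15. Albfm1, Rassf6, Mthfd2l and Epgn did not pass. Cxcl1, Cxcl2 and Cxcl3 are alike in coding sequence, and no source used here says whether their probes tell them apart.

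**Figure D3:**
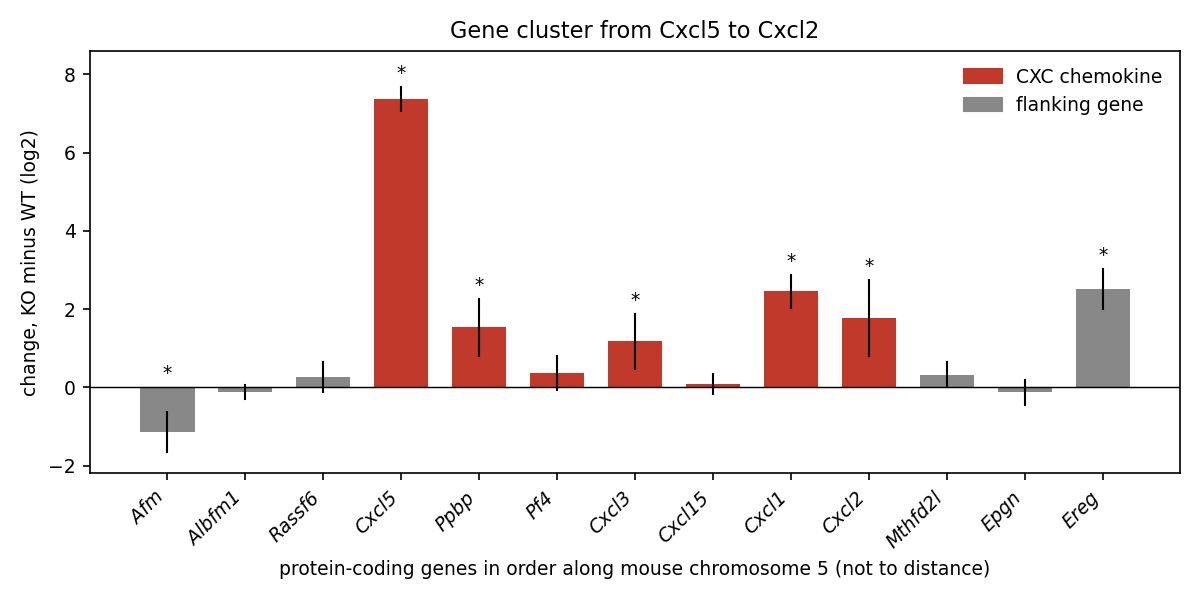
Change (KO minus WT, log2) of the 7 CXC chemokine genes from Cxcl5 to Cxcl2 and of 3 coding genes on each side, in their order along chromosome 5; black lines are 95% intervals and stars mark genes that passed. Cxcl5 at one end of the cluster reaches 7.37. Cxcl15 near its middle stays at 0.08, with levels below the 75th percentile of the negative controls in every array.

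The ligands of Cxcr3 did not pass. Cxcl9 was at 4.70 to 5.02 in KO and 4.69 to 5.27 in WT, within or just above the range of the negative control medians, and its change of -0.15 had a 95% interval of -0.42 to 0.11 (limma, adjusted p = 0.412). Cxcl10 stood at 7.44, 6.35, 5.48, 5.41 and 5.17 in KO and at 5.38, 5.20, 5.12, 5.22 and 5.56 in WT. KO replicates 1 and 2 lay above all WT arrays and the other 3 did not. Its change of 0.67 had a 95% interval of -0.13 to 1.47 (limma, adjusted p = 0.212), so a rise of the size seen for Cxcl1 lies outside the interval. Cxcl11, the other ligand of Cxcr3, is annotated as a transcribed pseudogene in the RefSeq table and changed by 0.18 (95% interval -0.50 to 0.87).

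The ligands known from stromal and lymphoid tissue showed little. Cxcl12 was at 6.02 to 6.31 in KO and 6.10 to 6.55 in WT, a change of -0.14 (95% interval -0.39 to 0.11; limma, adjusted p = 0.425). Cxcl13, which draws B cells through Cxcr5, stood at 4.45, 4.52, 4.52, 4.09 and 4.44 in KO and at 4.60, 5.15, 4.94, 4.77 and 5.34 in WT. All KO arrays lay below all WT arrays, yet 4 of the 5 KO arrays and 2 of the 5 WT arrays were at or below the negative control median of their own array. Cxcl13 changed by -0.56, standard error 0.15 (limma, adjusted p = 0.0167). Tested for a difference beyond 1.2-fold, by the treat method of limma, it did not pass (adjusted p = 0.185), and Cxcl9 and Cxcl13 were the 2 members among the dimmest 25% of named probe sets. Cxcl14, an epithelial chemokine, was at 5.74 to 6.42 in KO and 5.82 to 6.51 in WT, a change of -0.04 (95% interval -0.40 to 0.32; limma, adjusted p = 0.894).

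Cxcl16 showed the second largest rise of the family. It stood at 12.11, 11.79, 11.64, 11.68 and 11.82 in KO and at 8.41, 8.28, 7.58, 8.10 and 8.50 in WT. In contrast to Cxcl5, it was well above background in WT as well, and the groups did not overlap. The rise was 3.63, 12.4-fold, with a standard error of 0.17 (limma, adjusted p = 2.28e-08).

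Cxcl17, a chemokine of mucosal epithelia, stood at 5.78, 6.30, 6.23, 7.32 and 6.83 in KO and at 5.78, 5.64, 6.15, 5.86 and 5.71 in WT. 4 KO arrays lay above all WT arrays, while KO replicate 1 lay within their range. The change of 0.66 (95% interval 0.12 to 1.2, not adjusted) did not pass (limma, adjusted p = 0.0703). Without KO replicate 1 it was 0.84 and passed (limma, adjusted p = 0.0158), as it did with arrays weighted by their quality (adjusted p = 0.0241).

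By the exact two-sided permutation test over the 10 arrays, Cxcl1, Cxcl5, Cxcl13 and Cxcl16 each gave p = 0.00794, the smallest that 5 against 5 arrays can give. Cxcl2 gave p = 0.0238 and Cxcl17 p = 0.0317 in that exact test, and the other 4 members gave p of 0.151 or more. These p-values are not adjusted.

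**Figure D4:**
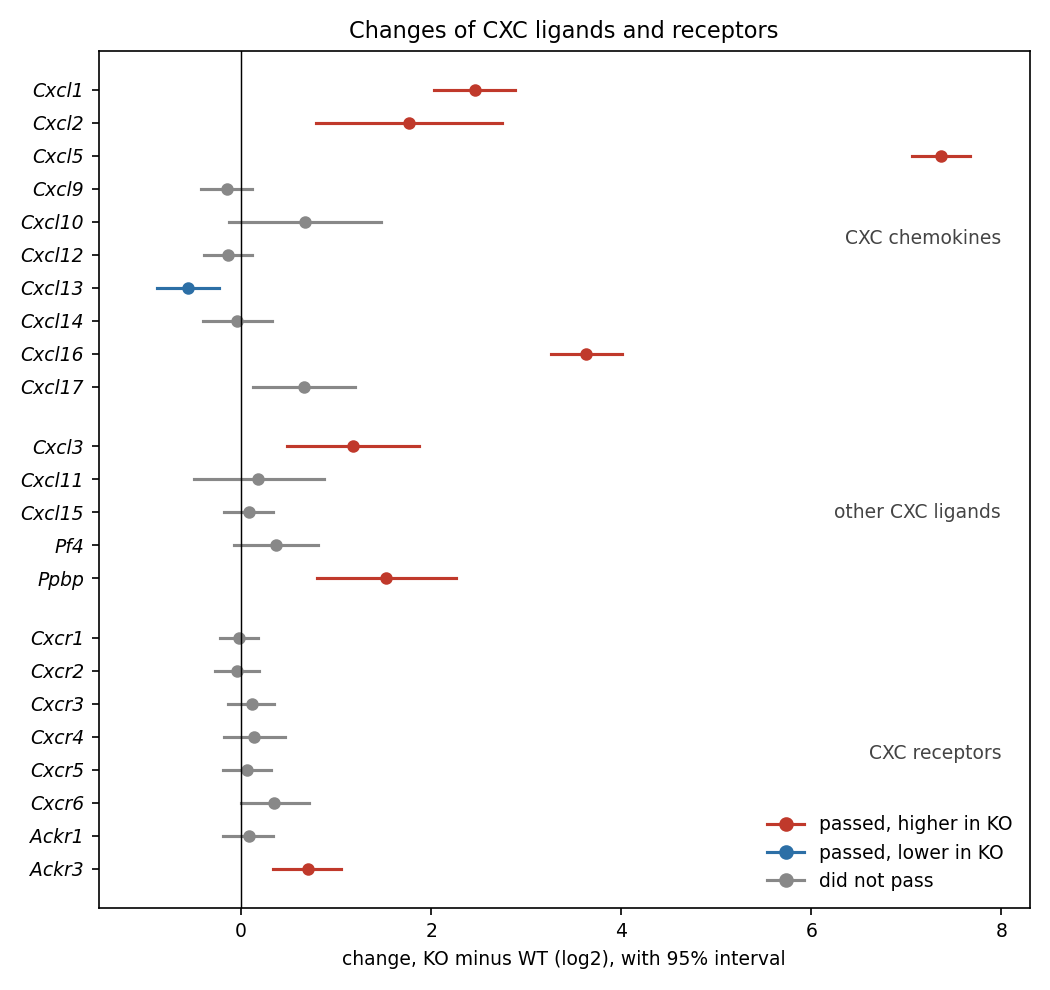
Change (KO minus WT, log2) of CXC ligands and receptors with 95% intervals from limma; colours mark whether a gene passed and in which direction. Among the receptors Ackr3 alone passed, at 0.70.

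The arrays of the KO group differed in which chemokines were high. For Cxcl1, Cxcl2 and Cxcl3, KO replicate 2 was the highest and KO replicate 5 the lowest KO array, a pattern seen in 7.78% of all probe sets tested. Il1a, the interleukin 1α gene, named after its values were seen, had the same pattern and a spread of 3.31 within KO, from 5.41 to 8.72. The leukocyte marker list held 4 of 18 genes with this pattern, among them the neutrophil genes S100a9 and S100a8, also named with their values known. Csf3r, a neutrophil receptor gene of the list named in the same way, was instead highest in KO replicate 5 (5.66) and lowest in KO replicate 4 (5.14). The receptor gene Cxcr2 was at 5.25 in KO replicate 2 and at 5.32 in KO replicate 5. Among the KO arrays, S100a9 lay above the 75th percentile of the negative controls in 2, Csf3r in 1 and Cxcr2 in 0. Differences between KO arrays in these genes are therefore hard to read. S100a9 stood at 6.18, 6.52, 5.37, 4.95 and 4.64 in KO and at 4.76 to 4.98 in WT, and S100a8 at 3.32 to 4.28 in KO and 3.32 to 3.69 in WT, below the negative control median of each array. Neither passed between the groups (limma, adjusted p = 0.147 and 0.349), and the part of such cells in the spread of Cxcl1, Cxcl2 and Cxcl3 was not tested. Cxcl5 was also lowest in KO replicate 5, though its spread was 0.83. Cxcl10 and Cxcl11 were instead highest in KO replicate 1, at 1.47 and 1.16 above their KO means. The interferon pathway genes Irf7, Stat2 and Irf9 were highest there too, at 2.67, 1.02 and 1.02 above their KO means; KO replicate 1 was the highest KO array for 18.3% of all probe sets. Irf7 was at 9.58 in that array and at 5.25 to 6.71 in the other KO arrays. Irf7 and Stat2 were named after their values were seen. Of the 13 interferon pathway genes, 6 were highest in KO replicate 1 and 3, Irf3 (7.99), Socs1 (5.96) and Tyk2 (8.51), were lowest there. That array was the lowest KO array for 19.6% of all probe sets. Cxcl9 was at 4.76 there. Of all arrays, KO replicate 1 had the highest negative control median and KO replicate 2 the lowest; the part of this in these patterns was not tested.

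**Figure D5:**
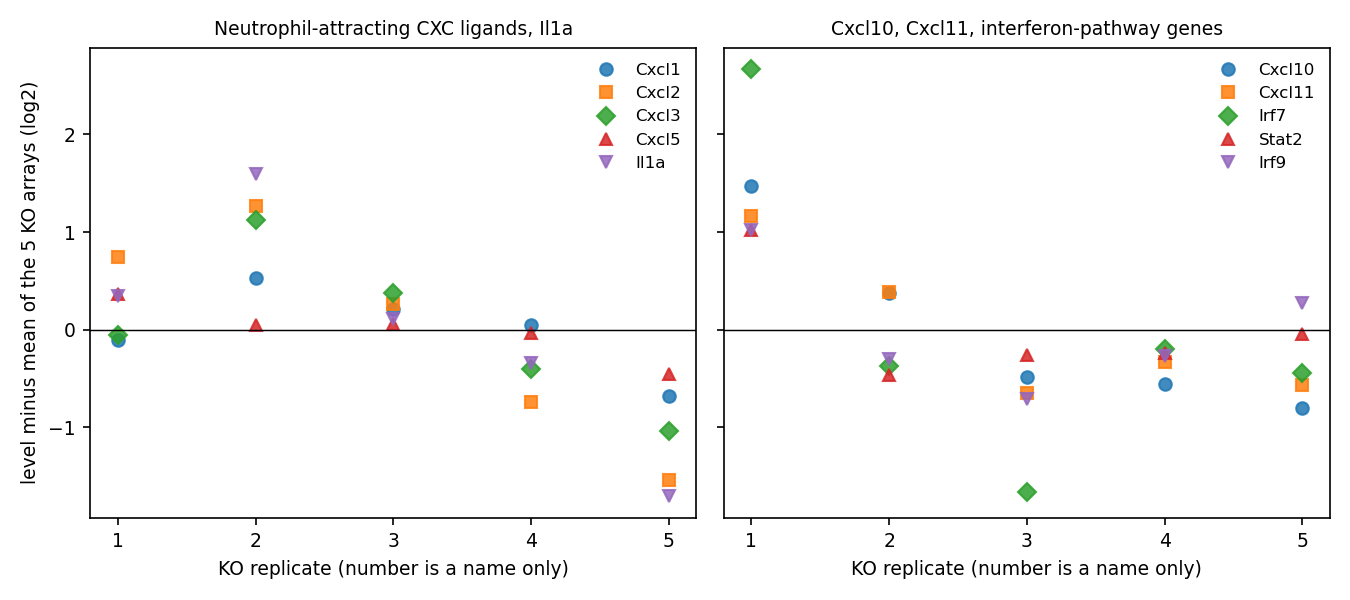
Level of each gene in each KO array minus its mean over the 5 KO arrays (log2); the replicate number is a name without order. Il1a and Cxcl2 reach 1.60 and 1.27 above their means in KO replicate 2, and Irf7 and Cxcl10 reach 2.67 and 1.47 in KO replicate 1.

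By rule, the 5 named genes of other families with the profile most like that of Cxcl5 were sought among 17033 candidates, by the root mean square difference of levels centred over the 10 arrays. They were Cp, a copper-carrying ferroxidase (0.35), the membrane mucin gene Muc1 (0.35), the GABA receptor subunit gene Gabrp (0.42), the iron-withholding Lcn2 (0.49) and Bicc1, an RNA-binding protein gene (0.50). Their changes lay between 6.58 and 7.94. For Cxcl13 the nearest were Plb1 (0.11), Tmem182 (0.13), Nkx6-3 (0.13), Celf3 (0.15) and Ffar2 (0.15). Their changes lay between -0.75 and -0.41, and Nkx6-3 did not pass (limma, adjusted p = 0.0565).

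Of the 8 measured receptors for CXC chemokines, 1 rose, none fell by limma (also 0 at an unadjusted p under 0.05) and 7 did not pass, with a median change of 0.09. For comparison, 15.0% of all probe sets tested passed as higher and 11.7% as lower. Ackr3, which takes up Cxcl12 without G protein signalling, was at 5.96 to 6.55 in KO and 5.16 to 5.76 in WT, with no overlap, and rose by 0.70 (standard error 0.16; limma, adjusted p = 0.00689). Tested for a difference beyond 1.2-fold, Ackr3 did not pass (treat in limma, adjusted p = 0.0633). Cxcr2, the receptor of the neutrophil attractants, changed by -0.04 (95% interval -0.27 to 0.19) and Cxcr1 by -0.02. However, 4 of the 8 receptors, Cxcr2, Cxcr5, Cxcr6 and Ackr1, lay below the 75th percentile of the negative controls in every array. This limits the reading of their changes. Cxcr6, the receptor of Cxcl16, changed by 0.35 (limma, adjusted p = 0.142) from levels near or below background and passed only without WT replicate 2 (limma, adjusted p = 0.0392). Cxcr3 changed by 0.11, Cxcr4 by 0.14, Cxcr5 by 0.06 and Ackr1, a chemokine-binding protein of red cells and venules, by 0.08; none passed. Among the other 5 CXC ligands, Cxcl3 and Ppbp rose and none fell by limma (0 also at an unadjusted p under 0.05), with a median of 0.37.

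Genes whose products cleave, shed or capture chemokines changed unevenly: 4 of 10 rose, 1 fell and 5 did not pass, with a median of 0.13. Beside this, 15.0% of all probe sets tested passed as higher and 11.7% as lower. Adam17, a protease that sheds membrane proteins, rose by 0.63 and Mmp7, a protease known to release Cxcl1 held on the cell surface by syndecan 1, by 3.05. Sdc4, a heparan sulfate proteoglycan, rose by 0.78. Sdc1, the gene of syndecan 1, rose by 0.56 (limma, adjusted p = 0.00438) and was named with its value known. The aminopeptidase Anpep, a brush border enzyme, was at 4.74 to 5.49 in KO and 9.44 to 12.07 in WT and fell by 6.14 (limma, adjusted p = 6.61e-07). Adam10, the other protease that sheds Cxcl16, changed by 0.25 (limma, adjusted p = 0.112) and was named with its value known.

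Among NF-kB factors, kinases and inhibitors, 8 of 12 measured genes rose, 1 fell and 3 did not pass, with a median of 0.61. The shares over all probe sets tested were 15.0% higher and 11.7% lower. The subunit genes Nfkb2 and Rela rose by 1.39 and 1.15 and the inhibitor gene Nfkbie by 1.24, and the gene that fell was Nfkbia. Nfkb1 and Chuk are not named in the array table used here and were not analysed. On the input side, 9 of 18 genes of the interleukin 17, interleukin 1, tumour necrosis factor and Toll-like receptor (TLR) pathways rose, 1 fell and 8 did not pass, with a median of 0.92. The receptor genes Il1r1 (4.47), Tlr4 (4.04), Il17re (3.91) and Tlr5 (2.88) had the smallest p. For Tlr4 the KO arrays were at 8.08 to 8.77 and the WT arrays, near background, at 4.19 to 4.72. The gene that fell was Il1rap, which encodes the partner chain of the interleukin 1 receptor (-2.13) and was named after its value was seen.

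On the interferon side 13 genes were measured, of which 3 passed as higher, 1 as lower and 9 not at all, with a median of 0.25, beside 15.0% higher and 11.7% lower over all probe sets tested. The type I interferon receptor genes Ifnar2 and Ifnar1 rose by 1.88 and 0.69, and Irf9 rose by 0.88. Jak2 fell by 0.52. The p-values of Irf9 and Jak2 (limma, adjusted p = 0.034 and 0.0335) lay close to the threshold. Irf9 did not pass with KO replicate 5 left out, nor with any of WT replicates 1, 2, 3 and 5 left out (limma, adjusted p = 0.0581 to 0.0809), with changes of 0.80 to 0.90. Jak2 did not pass with any of KO replicates 1, 2, 3 and 5 or of WT replicates 1 and 4 left out (limma, adjusted p = 0.0507 to 0.0764), with changes of -0.54 to -0.40. Tested for a difference beyond 1.2-fold, Ifnar1, Irf9 and Jak2 did not pass (treat in limma, adjusted p of 0.0690, 0.126 and 0.305). Of 7 genes for proteins that bind and destabilise or stabilise chemokine mRNA, 2 rose, none fell by limma (1 at an unadjusted p under 0.05) and 5 did not pass, with a median of 0.21. Zfp36l1 rose by 1.69 and the RNase gene Zc3h12a by 1.33, while Khsrp changed by 0.21 and Hnrnpd by -0.57 (limma, adjusted p = 0.0528) without passing; Hnrnpd passed in 8 of the 21 alternatives, among them with KO replicate 3 left out (limma, adjusted p = 0.0464) and with WT replicate 4 left out (limma, adjusted p = 0.00276).

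Markers of cells other than epithelium were examined because leukocytes and stroma make several of these chemokines. Of 18 measured leukocyte markers, 2 rose, 1 fell and 15 did not pass, beside 15.0% higher and 11.7% lower over all probe sets tested. The integrin gene Itgam was at 6.14 to 8.37 in KO and 4.82 to 5.47 in WT and rose by 1.56. Csf1r, a macrophage receptor gene picked with its value known, rose by 1.53. The myeloid genes Adgre1 (-0.19), Tyrobp (0.05), Fcer1g (-0.06) and Itgax (-0.02), also picked with their values known, did not pass. Coro1a fell by 0.44 but did not pass with KO replicate 4 left out (limma, adjusted p = 0.0547) or with WT replicate 5 left out (limma, adjusted p = 0.0544). Ptprc, which defines leukocytes, was at 5.37 to 5.65 in KO and 5.43 to 6.0 in WT, and 7 of the 18 lay below the 75th percentile of the negative controls in every array. The summed linear level of the list was 684 to 1100 in KO and 605 to 681 in WT, and the part of such cells in the rises of Cxcl1, Cxcl2, Cxcl5 and Cxcl16 was not tested. Such a sum gives most weight to the brightest genes. Itgam and Csf1r, which rose, reached the highest levels of the list, up to 8.37 and 7.59 in KO. The median change of the list was 0.01. Of 13 measured fibroblast and smooth muscle markers none rose by limma (0 also at an unadjusted p under 0.05) and 1 fell; this was Lum, named with its value known, which fell by 0.39 from a level below the negative control median in every array. Vim changed by -0.53 (limma, adjusted p = 0.0644) and Col6a1 by 0.21, neither passing, though Vim passed in 4 of the 21 alternatives, among them without WT replicate 1 (limma, adjusted p = 0.00913), with array weights (0.0134) and with 75th percentile centring (0.0497). The summed level of the 13 fibroblast and smooth muscle markers was 626 to 776 in KO and 669 to 827 in WT. Of these, 5 lay below the 75th percentile of the negative controls in every array. Of 8 endothelial markers, 0 rose and 0 fell by limma (0 and 1 at an unadjusted p under 0.05), with Tek at -0.31 and Cldn5 at 0.10; Tek passed in 3 of the 21 alternatives, among them without WT replicate 4 (limma, adjusted p = 0.0477) and with array weights (0.0241). The summed endothelial level was 201 to 276 in KO and 231 to 240 in WT. However, 6 of the 8 endothelial markers, Tek among them, lay below the 75th percentile of the negative controls in every array. Of 9 epithelial markers 3 rose and 3 fell, from Cdx2, an intestinal transcription factor, at -2.16 to the keratin gene Krt18 at 1.43, with a summed level of 23400 to 27400 in KO and 21500 to 24100 in WT.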

How the data were processed

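Total RNA from 10 mouse intestinal organoid samples was hybridised to 1 array each, labelled from 100 ng per the labels' protocols. The authors deposited log2 levels per probe set, with RMA and limma named in lists taken from the submitters' processing notes. No source used here gives versions, a genome build or the set of arrays normalized together. The table held 28846 probe sets, 6640 of them controls; 19572 carry 1 gene symbol in the platform annotation, 0 carry several, and 2634 others are unnamed here. All 10 members matched the RefSeq table (GRCm38.p6) by gene identifier.

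The deposited log2 values were compared, KO against WT, with limma 3.58.1 (R 4.3.3) on all probe sets, with moderated variances and no filter on low values; 8 of the 10 members passed the filter tried as an alternative, which left out the dimmest 25%. P-values were adjusted by Benjamini-Hochberg over the 19572 named probe sets. Beside this stood an exact permutation test for each member. The members, pathway lists and marker lists were chosen with earlier results of these data known. Text names all members, other CXC ligands and receptors, Nfkbia, the 4 smallest p of each other pathway list, the highest and lowest change of each marker list, and the 5 genes most like the highest and the lowest member. The limma step was tested on simulated data (19572 probe sets, 200 changed): of genes changed by 0.5, 1, 2 and 4 on the log2 scale, 32%, 70%, 100% and 100% were recovered, with 9 false calls. In the real data a larger share passed, 15.0% as higher and 11.7% as lower. The recovered shares therefore need not hold for these data. Protein sequences planned for comparison were not used here. The number of arrays limits precision. Alternatives changed the normalization, variance model, array weights, adjustment, dim filter, threshold, probe set rule, replicate block and left out arrays; leaving out control probe sets was added after seeing the data. Python 3.11.15 with pandas 2.3.3, numpy 2.4.6 and matplotlib 3.10.9 made the tables and figures.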

Additional observations from a re-analysis of the deposited data

Results flagged for a closer look

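In groups of 5 arrays, a value far from the other 4 (gap to the nearest over the whole range above Dixon's 95% limit) was sought in 102 groups of the 51 named genes of the fixed lists; chance gives about 1 in 20, and 5 were found. Cxcl13 was at 4.09 in KO replicate 4 and at 4.44 to 4.52 in the other KO arrays, all near background. Nfkbia was at 9.85 in WT replicate 5 against 8.95 to 9.19 in the other WT arrays, and in the same array Zc3h12a was at 8.90 against 7.24 to 7.71. Ifnar1 was at 7.85 in WT replicate 1 and at 8.39 to 8.45 in the other WT arrays. Itgam was at 8.37 in KO replicate 1 and at 6.14 to 6.64 in the other KO arrays.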

How the results depend on the processing

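The count of 4 CXC chemokines that rose was 4 or 5 under all 21 alternatives, and 4 to 5 when any 1 array was left out; the fifth was Cxcl17. The count of 1 that fell was 0 with the dimmest 25% left out, since Cxcl13 was then not tested, and 0 when tested for a difference beyond 1.2-fold; it was 1 to 1 when any 1 array was left out. Cxcl1, Cxcl2, Cxcl5 and Cxcl16 passed in every alternative. Beyond 1.2-fold, 0 receptors rose, 1 interferon pathway gene rose and 0 fell; the interferon count that fell was also 0 without KO replicate 2 and WT replicate 4 together. For mRNA decay genes, 1 and not 0 fell with cyclic loess, 75th percentile centring, the dimmest 25% left out, array weights, the replicate block, or without KO replicate 2 and WT replicate 4 together. Leaving out 1 array at a time, receptors that rose numbered 1 to 2, interferon pathway genes that rose 2 to 4 and fell 0 to 1, and mRNA decay genes that fell 0 to 1; Nfkbia changed by -4.20 to -3.96. Where no cause is named, the cause was not tested.

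The labels share replicate numbers, but deviations of same-numbered arrays correlated at -0.07 to 0.36 and 4 of 10 arrays correlated best with their own number, so the numbers were not taken as pairs. With the replicate block 4 members rose and 1 fell, and Nfkbia changed by -4.13; among the named genes the block changed the calls of Vim and Hnrnpd, which then passed as lower (limma, adjusted p = 0.0312 and 0.0292). The median change of all probe sets was -0.015 as deposited, -0.010 with cyclic loess and -0.047 with 75th percentile centring. Members with a kB match numbered 4 in 250 bases and 3 in the last 100.

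Detection calls were not used here, so levels near the negative controls limit the reading of Cxcl9, Cxcl13 and Cxcl15, and of Cxcl5 and Ppbp in WT. The same holds for Cxcr2, Cxcr5, Cxcr6 and Ackr1, and for most endothelial markers. With 5 arrays per group, the 95% interval of Cxcl10 held both 0 and a rise of 1.47.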

Other observations

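Some genes of cytokines known to induce CXC chemokines, and of atypical IκB proteins, passed as higher in KO and others did not; all were named after their values were seen. Tnf, the tumour necrosis factor gene, was at 8.39 to 9.62 in KO and 4.40 to 6.99 in WT and rose by 4.03 with a standard error of 0.44 (limma, adjusted p = 2.7e-05); the highest WT array was replicate 5. Il1a rose by 2.63 (limma, adjusted p = 0.00113), whereas Il1b changed by 0.08 and did not pass, at 4.68 to 5.02 in KO and 4.59 to 4.94 in WT, nor did the cytokine gene Il17c, with 0.11 (limma, adjusted p = 0.596). Il33, an alarmin of epithelial nuclei, rose by 1.63 (limma, adjusted p = 0.00107). Nfkbiz, which encodes IκBζ, rose by 1.74 (limma, adjusted p = 0.000255) and Bcl3 by 2.01 (limma, adjusted p = 6.42e-05), while Nfkbid changed by 0.24 and did not pass (limma, adjusted p = 0.217). The receptor genes Il17ra and Il17rc changed by -0.18 and -0.10 and did not pass, while Il17re, of the same family, rose.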
